A study of Mus musculus with 12 samples.

Results

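Kidneys that had gone through ischemia/reperfusion injury (IRI) were compared between mice with a genetic deletion of Ybx3 and wild-type mice. The members were chosen by their column labels: 3 knockout IRI libraries and 3 wild-type IRI libraries, 6 of the 12 libraries in the series. The other 6 are knockout control and wild-type control libraries from uninjured kidneys. All mice were adults, and total kidney RNA was depleted of ribosomal RNA and sequenced. Not given in the sources used here were strain, the deleted part of Ybx3, the cells in which it was deleted, the sex of the mice, the duration of the ischemia and the time after it. The labels name separate samples and say no more of their origin, so the p-values reflect only how these samples vary, which may be technical. The title of the series ties the protein to renal IRI and to mitochondria, and the comparison asks how injured kidneys differ when the gene is deleted.

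Ybx3 encodes DNA-binding protein A, also known as ZONAB, a protein with a cold shock domain that can bind both DNA and RNA. Proteins of this family were named for binding the Y box, an inverted CCAAT sequence found in many promoters, and DNA-binding protein A also associates with tight junctions between epithelial cells. IRI is caused by cutting off renal blood flow and then letting it return. Tubule cells then lose transport functions and mitochondrial capacity, switch on stress and injury genes such as Havcr1 (kidney injury molecule 1) and Lcn2 (neutrophil gelatinase-associated lipocalin), and draw in neutrophils and macrophages.

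The 6 injured libraries held 39074224 to 64372902 counts, with the lowest total in knockout IRI replicate 3. Values are CPM, the counts scaled to a common library size. They are not divided by gene length, so levels are compared between libraries and not between genes. Markers of proximal tubule, thick ascending limb, collecting duct and podocytes were present in every library. Libraries of 1 group stood apart from each other in ways the labels do not give. Adrenal genes, from the hormone gland beside the kidney, were high in knockout IRI replicates 1 and 2. The summed Y-linked genes Ddx3y, Kdm5d, Eif2s3y and Uty were high in knockout IRI replicate 2 and in wild-type IRI replicates 1 and 3. They were intermediate in knockout IRI replicate 1 and wild-type IRI replicate 2, and near 0 in knockout IRI replicate 3. Among the controls they were high only in knockout control replicates 2 and 3. Along the main axis of variation over the tested genes (principal component 1), which took 48.9% of the variance, the control libraries lay between 38.4 and 47.7. Knockout IRI replicates 1 to 3 lay at -4.27, -48.3 and -15.9, against -67.0, -13.3 and -112 in wild-type IRI replicates 1 to 3. Wild-type IRI replicate 3 lay farthest from the controls, and wild-type IRI replicate 2 lay among the knockout libraries. Some list medians and calls are given with and without these libraries, and other values only with all libraries.

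Only 2 genes passed the test after injury: Ybx3 itself was lower in knockout kidneys and the histone gene Hist4h4 was higher. Each was 0.0052% of the 19218 genes tested, and both 0.0104%, with edgeR's quasi-likelihood test and a Benjamini-Hochberg adjusted p under 0.05. At an unadjusted p under 0.05, 2214 genes (11.5%) differed, 982 higher (5.11%) and 1232 lower (6.41%). In 1207 genes (6.28%) every knockout IRI library was above every wild-type IRI library, and in 1143 (5.95%) every one was below. The median log2 fold change over all genes tested was -0.0133. Limma-voom also called 2 genes, and DESeq2 called 117 (0.609%), 86 higher (0.447%) and 31 lower (0.161%).

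Ybx3 (ENSMUSG00000030189, mm10, chromosome 6, 131364855 to 131388476, minus strand) had 13.6, 15.6 and 18.6 CPM in knockout IRI replicates 1 to 3, against 81.1, 53.9 and 104 CPM in wild-type IRI replicates 1 to 3. All knockout libraries were below all wild-type libraries, and the highest wild-type value was in replicate 3. The log2 fold change was -2.33 with an SE of 0.23, at an edgeR adjusted p of 0.00719. Knockout IRI libraries still held 751 to 1050 Ybx3 counts, against 2893 to 4911 in wild-type IRI. The direction held in every fit that left out 1 library. The call ended without knockout IRI replicate 1 or 2 (edgeR adjusted p of 0.0973 and 0.0934) and without both (0.915), and it stayed without any 1 of the other libraries (0.00116 to 0.0442).

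Hist4h4 (ENSMUSG00000096010, mm10, chromosome 6, 136801553 to 136804415, minus strand), 1 of several genes that encode histone H4, lies 5.41 Mb from Ybx3. It had 14.4, 14.0 and 14.3 CPM in knockout IRI replicates 1 to 3, against 5.81, 5.91 and 5.79 CPM in wild-type IRI replicates 1 to 3. The groups did not overlap, and each was tight. Its log2 fold change was 1.29 with an SE of 0.12, at an edgeR adjusted p of 0.00719. The call was lost when knockout IRI replicate 1 was left out (edgeR adjusted p = 0.075) and when both knockout libraries with adrenal transcripts were (edgeR adjusted p = 0.865), while the log2 fold change stayed at 1.28 and 1.30. Histone H4 genes encode near-identical proteins, and the sequences of the copies were not compared here. How reads were shared among them in counting was not given in the sources used here, so the level of any 1 copy is uncertain. Among the other H4 genes tested, Hist1h4n had the farthest log2 fold change from 0, at 0.32 (edgeR adjusted p = 0.611), and Hist1h4c, at 48.3, 45.5 and 53.7 CPM in knockout IRI against 48.2, 49.6 and 33.8 CPM in wild-type IRI, had 0.16 (edgeR adjusted p = 0.645).

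**Figure D1:**
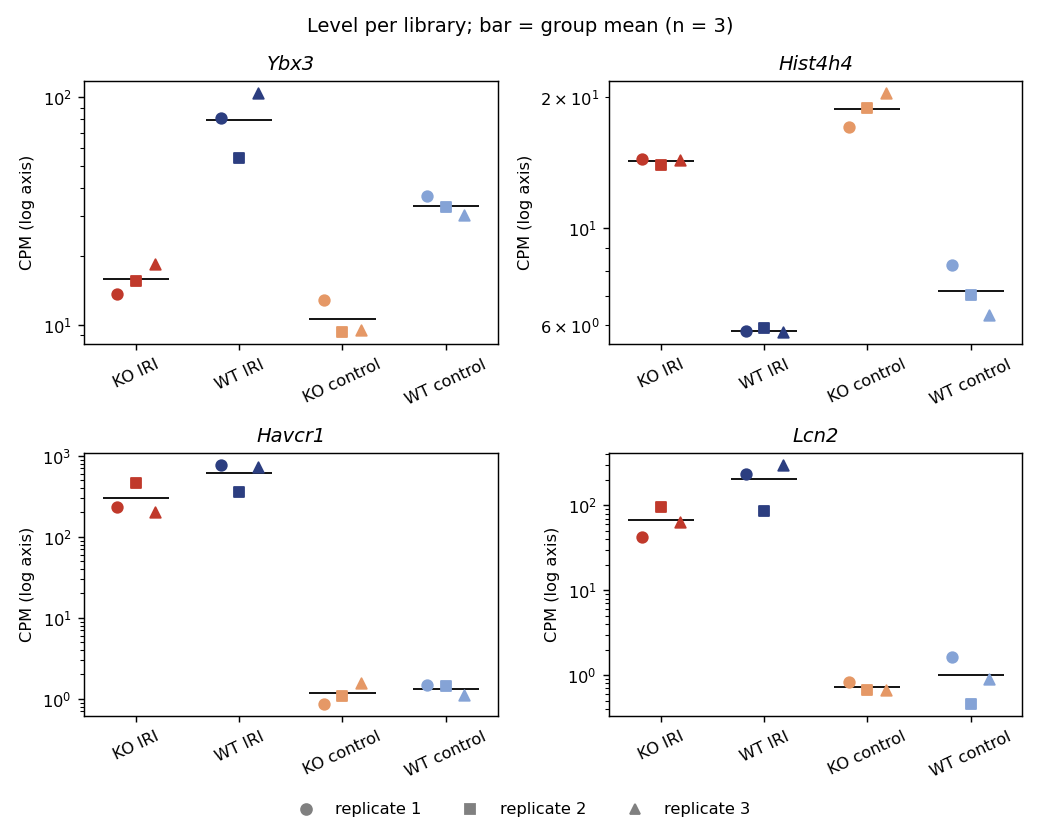
CPM (log axis) of Ybx3, Hist4h4, Havcr1 and Lcn2 in each library, with 3 libraries per group in the order KO IRI, WT IRI, KO control and WT control, where KO is the Ybx3 knockout and WT is wild type; markers give the replicate and bars the group mean. Ybx3 and Hist4h4 separate the genotypes in both conditions, while Havcr1 and Lcn2 overlap after IRI at WT IRI replicate 2.

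Promoters of the 2 called genes are shown because both genes differ by genotype and because the Y box is the site for which the protein family was named. Each window runs from 250 bases before to 50 bases after the start of the gene, from RefSeq on GRCm38.p6, and is written 5′ to 3′ on the minus strand, the strand of both genes. Capitals mark the letters TATAA or, on the other strand, TTATA.
Ybx3, chr6:131388401-131388700: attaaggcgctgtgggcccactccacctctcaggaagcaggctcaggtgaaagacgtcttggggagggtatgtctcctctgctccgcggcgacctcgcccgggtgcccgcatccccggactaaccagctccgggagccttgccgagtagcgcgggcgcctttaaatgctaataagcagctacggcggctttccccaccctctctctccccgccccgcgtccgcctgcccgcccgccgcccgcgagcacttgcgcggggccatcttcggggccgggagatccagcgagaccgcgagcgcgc
Hist4h4, chr6:136804382-136804681: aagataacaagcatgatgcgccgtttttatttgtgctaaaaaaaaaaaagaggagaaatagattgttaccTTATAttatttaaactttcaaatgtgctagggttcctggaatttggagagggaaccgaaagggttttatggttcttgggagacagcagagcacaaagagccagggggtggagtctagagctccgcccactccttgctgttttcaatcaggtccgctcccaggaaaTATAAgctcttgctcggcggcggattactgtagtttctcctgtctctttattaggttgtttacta

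The Ybx3 window was 69% G and C and held neither CCAAT nor TATAA on either strand. The Hist4h4 window was 42.7% G and C and held TATAA once on each strand and no CCAAT. Of 32851 RefSeq mouse windows of the same 300 bases, 37.4% held CCAAT and 24.9% held TATAA on at least 1 strand. A match is a run of letters and not a binding site.

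Genes of chromosome 6 near Ybx3 were also set beside the uninjured comparison, which uses other libraries. In it 2.94% of genes were higher and 2.42% lower at an unadjusted p under 0.05, and in 6.34% and 10.1% every knockout control library was above or below every wild-type control library. A total of 51 genes had the same direction, groups that did not overlap and an unadjusted p under 0.05 in both genotype comparisons. They were 11 of 377 tested genes within 20 Mb of Ybx3 (2.92%), of which only Ybx3 and Hist4h4 were called after injury, and 40 of 18841 elsewhere (0.212%). Erp27, a protein of the endoplasmic reticulum, had 0.154, 0.104 and 0.124 CPM in knockout IRI against 0.650, 0.783 and 0.489 CPM in wild-type IRI (log2 fold change -2.31, edgeR adjusted p = 0.0728). It was chosen after its values were seen, as the gene with the third-smallest p.

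Among the other cold shock domain genes none passed the test. Ybx1, the closest relative of Ybx3 and an RNA-binding protein of many messenger RNAs, had 203, 215 and 206 CPM in knockout IRI against 269, 224 and 343 CPM in wild-type IRI. The groups did not overlap, with a log2 fold change of -0.42 with an SE of 0.22, at an edgeR adjusted p of 0.453. Ybx2, known from germ cells, had a log2 fold change of 0.67 at an edgeR adjusted p of 0.463. Carhsp1, which holds a cold shock domain and binds RNA, had -0.64 (edgeR adjusted p = 0.422).

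Tubular injury and repair genes were lower in the knockout group on average, and none of the 29 tested passed the test. Of these, 24 had a negative log2 fold change, 15 were lower and 0 higher at an unadjusted p under 0.05, and the median was -0.56, beside -0.0133 over all genes. Over all genes 6.41% were lower at that p. Only Clu, S100a11 and Sprr2f were below without overlap, beside 5.95% of all genes. Summed over the list, the level was 3972, 5477 and 5382 CPM in knockout IRI replicates 1 to 3, against 8769, 5569 and 10330 CPM in wild-type IRI replicates 1 to 3. All knockout sums were below all wild-type sums, and wild-type IRI replicate 2 was just above the highest knockout library. Control libraries held 998 to 1324 CPM in knockout and 1248 to 1481 CPM in wild type.

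Havcr1, the classical proximal tubule injury marker, had 234, 463 and 204 CPM in knockout IRI replicates 1 to 3, against 769, 358 and 720 CPM in wild-type IRI replicates 1 to 3. The groups overlapped, with wild-type IRI replicate 2 below knockout IRI replicate 2. The log2 fold change was -1.03 with an SE of 0.35, at an edgeR adjusted p of 0.422. Lcn2, a secreted siderophore-binding protein made by injured distal tubules, had 42.3, 95.5 and 64.3 CPM in knockout IRI, against 237, 84.8 and 299 CPM in wild-type IRI. It overlapped at the same libraries, with a log2 fold change of -1.62 with an SE of 0.47, at an edgeR adjusted p of 0.422. In uninjured kidneys Havcr1 averaged 1.17 CPM in knockout and 1.34 CPM in wild type, and every injured library of both genotypes lay above every control library.

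Sox9, a transcription factor of regenerating tubule cells, had the farthest log2 fold change from 0 in the list. It was at 2.25, 5.59 and 2.60 CPM in knockout IRI replicates 1 to 3, against 23.2, 5.22 and 142 CPM in wild-type IRI replicates 1 to 3. Wild-type IRI replicate 2 lay within the knockout range, and the log2 fold change was -4.02 with an SE of 0.94, at an edgeR adjusted p of 0.422. S100a11, a calcium-binding protein, had 43.3, 61.7 and 45.4 CPM in knockout IRI, against 95.3, 65.4 and 79.7 CPM in wild-type IRI. Its groups did not overlap, with a log2 fold change of -0.68 with an SE of 0.16, at an edgeR adjusted p of 0.422. Krt20, a keratin of injured tubules, had a log2 fold change of -1.68 with an SE of 0.65, at an edgeR adjusted p of 0.422, with 79.1, 123 and 138 CPM in knockout IRI against 173, 106 and 809 CPM in wild-type IRI. Clu, a secreted chaperone of damaged tubules, had 211, 273 and 273 CPM in knockout IRI against 526, 302 and 509 CPM in wild-type IRI.

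**Figure D2:**
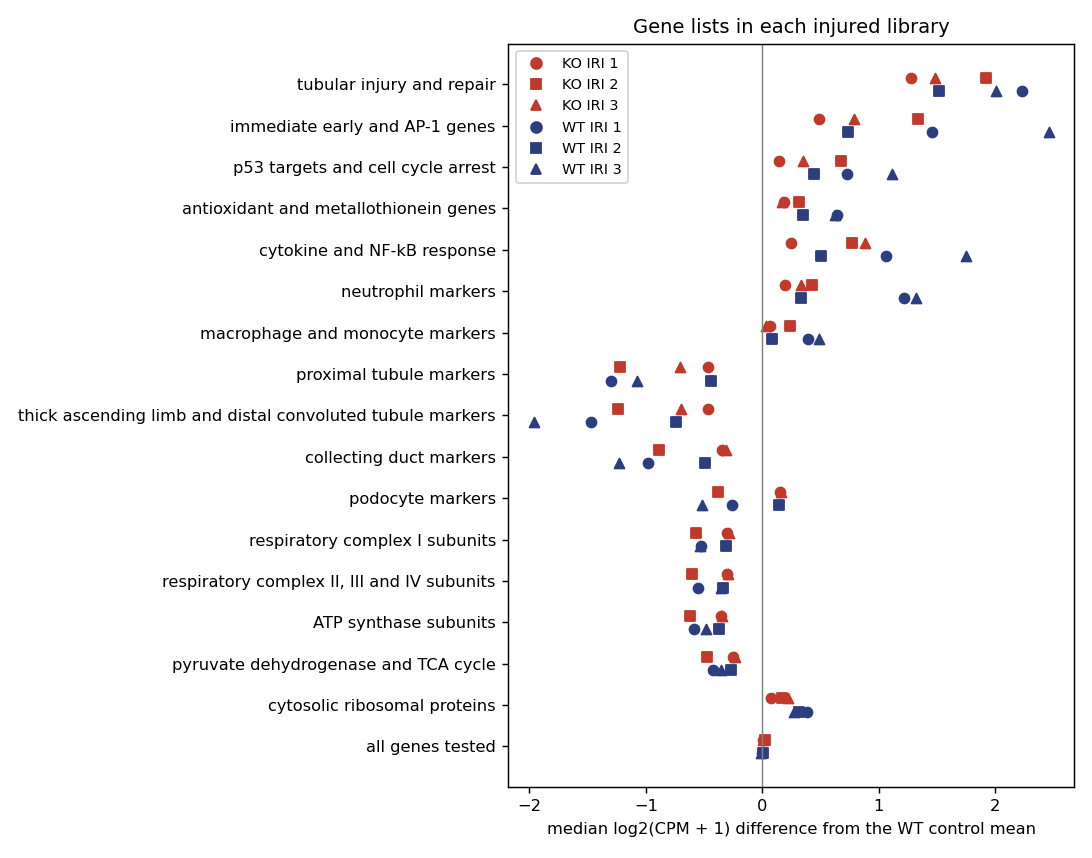
Each point is 1 injured library: the median, over the members of a gene list, of log2(CPM + 1) minus the mean of the wild-type control libraries, with KO IRI above WT IRI in each row. For tubular injury genes KO IRI lies at 1.28 to 1.92 and WT IRI at 1.52 to 2.23, and WT IRI replicate 2 is the lowest WT library for injury, early, p53, cytokine and neutrophil genes.

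Immediate early and AP-1 genes, the first transcription factors switched on by cell stress, had negative log2 fold changes in all 20 tested genes, with a median of -0.95. None was called, and 9 were lower at an unadjusted p under 0.05, beside 6.41% of all genes. In no gene did the groups separate. The difference lay largely in 1 library: without wild-type IRI replicate 3 the median was -0.25. Klf6, a zinc finger factor, had 44.3, 79.4 and 68.6 CPM in knockout IRI against 97.5, 51.3 and 737 CPM in wild-type IRI. Fosl1, an AP-1 subunit, had 5.88, 14.7 and 8.21 CPM in knockout IRI against 26.4, 6.73 and 68.9 CPM in wild-type IRI (log2 fold change -1.82, edgeR adjusted p = 0.422).

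Antioxidant and metallothionein genes had negative log2 fold changes in all 22 tested genes, with a median of -0.38. None was called, 9 were lower at an unadjusted p under 0.05 (6.41% of all genes), and 4 were below without overlap (Gclc, Prdx1, Prdx5 and Prdx6, beside 5.95% of all genes). Gclc, the catalytic subunit of the first enzyme of glutathione synthesis, had 278, 412 and 283 CPM in knockout IRI replicates 1 to 3, against 584, 438 and 880 CPM in wild-type IRI replicates 1 to 3. Every knockout library was below every wild-type library, with a log2 fold change of -0.97 with an SE of 0.29, at an edgeR adjusted p of 0.422. Its partner Gclm, the modifier subunit, had 44.1, 59.1 and 37.8 CPM in knockout IRI against 95.2, 54.3 and 83.4 CPM in wild-type IRI, and overlapped at wild-type IRI replicate 2 (log2 fold change -0.72, SE 0.21, edgeR adjusted p = 0.422).

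Genes of p53 and cell cycle arrest had 16 negative of 17 log2 fold changes and a median of -0.44, and -0.21 without wild-type IRI replicate 3. In all, 4 were lower at an unadjusted p under 0.05, beside 6.41% of all genes, and none was called. Cdkn1a, the arrest gene p21, had 18.04, 39.4 and 26.5 CPM in knockout IRI against 62.3, 27.9 and 274 CPM in wild-type IRI. Tnfrsf10b, a death receptor that p53 switches on, had a log2 fold change of -0.83 at an edgeR adjusted p of 0.422. Cell death genes had 16 negative of 20 and a median of -0.34, and -0.0838 without wild-type IRI replicate 3. Casp8, the initiator caspase of death receptors, had 46.6, 56.5 and 52.4 CPM in knockout IRI against 75.9, 51.7 and 130.5 CPM in wild-type IRI. Heat shock and integrated stress response genes had a median of -0.22 over 19 genes, with Atf4, its central transcription factor, at -1.05 (edgeR adjusted p = 0.422). Hypoxia genes were mixed, with 7 positive and 11 negative and a median of -0.14. Among them Pdk1, a kinase that slows pyruvate oxidation, had a log2 fold change of 0.80 and Slc2a1, a glucose transporter, of -0.74 (edgeR adjusted p = 0.422 for both).

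Neutrophil markers had the lowest median of the immune lists. All 11 tested markers had negative log2 fold changes, with a median of -1.58. At an unadjusted p under 0.05, 8 were lower, beside 6.41% of all genes, but none was called. The summed level was 5.68, 8.95 and 7.30 CPM in knockout IRI replicates 1 to 3, against 28.6, 7.27 and 36.8 CPM in wild-type IRI replicates 1 to 3, with 2.16 to 2.50 CPM in knockout controls and 2.25 to 2.58 CPM in wild-type controls. Wild-type IRI replicates 1 and 3 were high, and wild-type IRI replicate 2 lay within the knockout range. In whole-tissue RNA, fewer cells of a type and less RNA per cell cannot be told apart.

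Retnlg, a secreted product of neutrophils, had 0.216, 0.267 and 0.198 CPM in knockout IRI, against 1.40, 0.317 and 2.47 CPM in wild-type IRI. The groups did not overlap, with a log2 fold change of -2.59 with an SE of 0.58, at an edgeR adjusted p of 0.422. Il1r2, the decoy receptor of interleukin 1, had 0.293, 0.815 and 0.792 CPM in knockout IRI against 3.64, 0.802 and 7.597 CPM in wild-type IRI, and overlapped at wild-type IRI replicate 2 (log2 fold change -2.67, SE 0.65, edgeR adjusted p = 0.422). Macrophage and monocyte markers had 13 negative and 8 positive of 21 log2 fold changes and a median of -0.19, or -0.33 without wild-type IRI replicate 2. At an unadjusted p under 0.05, 6 were lower and 0 higher (6.41% and 5.11% of all genes), and 5 were below and 1 above without overlap (5.95% and 6.28% of all genes). Cd14, the co-receptor for lipopolysaccharide, had 5.33, 11.2 and 13.4 CPM in knockout IRI, against 40.7, 15.4 and 105 CPM in wild-type IRI. The groups did not overlap, with a log2 fold change of -2.43 with an SE of 0.57, at an edgeR adjusted p of 0.422. Cx3cr1, the fractalkine receptor of resident phagocytes, had a log2 fold change of -0.46 at an edgeR adjusted p of 0.422, also without overlap. Adgre1, which encodes the macrophage marker F4/80, was the 1 marker above without overlap, at 0.44, and was chosen after its values were seen.

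Cytokine and NF-kB genes had 23 negative of 26 log2 fold changes and a median of -0.54, or -0.20 without wild-type IRI replicate 3. None was called and 5 were lower at an unadjusted p under 0.05, beside 6.41% of all genes. Cxcl2, which attracts neutrophils, had 0.216, 0.578 and 0.643 CPM in knockout IRI, against 2.56, 0.652 and 21.7 CPM in wild-type IRI. Its groups separated by a narrow margin at wild-type IRI replicate 2, with a log2 fold change of -4.13 with an SE of 1.08, at an edgeR adjusted p of 0.422. Birc3, an inhibitor of apoptosis in NF-kB signalling, had -0.83 (edgeR adjusted p = 0.422).

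Medians of the other immune lists stood near that of all genes, and single members differed. The median log2 fold change was 0.0159 for 11 lymphocyte markers, -0.0629 for 15 antigen presentation and complement genes and 0.0768 for 19 interferon-stimulated genes. At an unadjusted p under 0.05, 0, 3 and 2 genes of these lists were higher, beside 5.11% of all genes, and 0 were lower, beside 6.41%. Without overlap 1, 1 and 3 were above, beside 6.28% of all genes, and 0, 2 and 0 below, beside 5.95%. Ifi44, an interferon-stimulated gene, had 13.5, 12.98 and 11.4 CPM in knockout IRI against 6.64, 10.6 and 4.64 CPM in wild-type IRI. The groups did not overlap, with a log2 fold change of 0.79 with an SE of 0.25, at an edgeR adjusted p of 0.422. C1ra, a protease of the complement cascade, had 0.39 and Oasl2, another interferon-stimulated gene, 0.48, both without overlap (edgeR adjusted p = 0.422 for both). Matrix and fibroblast genes had a median of 0.18 over 22 genes, and -0.0344 without wild-type IRI replicate 3.

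Markers of the distal nephron had positive log2 fold changes, none called. For the thick ascending limb and distal convoluted tubule 17 of 18 were positive with a median of 0.51, and for the collecting duct 15 of 16 with a median of 0.42. At an unadjusted p under 0.05, 2 of the 18 were higher and 0 of the 16, beside 5.11% of all genes. The medians were 0.90 and 0.74 without wild-type IRI replicate 2, and 0.29 and 0.18 without wild-type IRI replicate 3. Ptger3, a prostaglandin receptor of the thick ascending limb, had 64.8, 61.4 and 64.5 CPM in knockout IRI, against 47.3, 53.04 and 30.6 CPM in wild-type IRI, while it averaged 126 CPM in knockout controls and 140 CPM in wild-type controls. Its groups did not overlap (log2 fold change 0.54, SE 0.24, edgeR adjusted p = 0.433). Scnn1g, a subunit of the epithelial sodium channel, had 52.0, 35.2 and 60.3 CPM in knockout IRI against 32.8, 44.2 and 21.6 CPM in wild-type IRI, which overlapped (log2 fold change 0.58, edgeR adjusted p = 0.442). In uninjured kidneys the medians ran the other way, at -0.38 for thick ascending limb and distal tubule and -0.42 for collecting duct. The uninjured groups also differed in Y-linked level, and its part in these medians was not tested.

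Proximal tubule markers were mixed, with 22 positive and 9 negative of 31, a median of 0.17 and 0 at an unadjusted p under 0.05 in either direction. The median changed sign without knockout IRI replicate 1 and without wild-type IRI replicate 1 (-0.0575), and it was 0.36 without wild-type IRI replicate 2 and 0.0996 without wild-type IRI replicate 3. Slc5a1, a sodium and glucose cotransporter, had 95.8, 56.1 and 105 CPM in knockout IRI against 39.03, 89.8 and 40.4 CPM in wild-type IRI. Wild-type IRI replicate 2 lay with the higher knockout libraries and knockout IRI replicate 2 lay with the lower wild-type ones (log2 fold change 0.60, SE 0.31, edgeR adjusted p = 0.445). Umod, the main secreted protein of the thick ascending limb, had 1774, 1358 and 1860 CPM in knockout IRI against 1281, 2285 and 1239 CPM in wild-type IRI, with a log2 fold change of 0.055 with an SE of 0.23, at an edgeR adjusted p of 0.922. Podocyte markers had a median of 0.15 over 10 genes and endothelial markers 0.12 over 13. Wt1, a transcription factor of podocytes, had a log2 fold change of 0.64 at an edgeR adjusted p of 0.422.

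Lists of nuclear genes of mitochondrial function had medians near 0 in the comparison, and no member was called. The median log2 fold change was 0.0701 over 35 complex I genes, -0.00299 over 26 genes of complexes II, III and IV, 0.0305 over 16 ATP synthase genes and 0.0742 over 22 genes of pyruvate dehydrogenase and the TCA cycle. At an unadjusted p under 0.05, 0 of the complex I, ATP synthase and TCA cycle genes differed. Except for complex I, each of these medians changed sign when 1 or another library was left out. Within complex I the log2 fold changes ran from -0.14 to 0.23, and within complexes II, III and IV from -1.16 to 1.41. In the latter list 1 gene was higher at an unadjusted p under 0.05, beside 5.11% of all genes. Of its members, Cox7a1 had 0.63 (edgeR adjusted p = 0.422) and Cox4i2 had -1.16 (edgeR adjusted p = 0.443), both with overlap. Ndufs1, the largest subunit of complex I, had 76.6, 62.8 and 74.3 CPM in knockout IRI, against 56.4, 71.2 and 56.1 CPM in wild-type IRI, with controls averaging 101 CPM in knockout and 96.7 CPM in wild type. Knockout IRI replicate 2 was the lowest knockout library and wild-type IRI replicate 2 the highest wild-type one, and the log2 fold change was 0.22 with an SE of 0.13, at an edgeR adjusted p of 0.472. The 37 genes of the mitochondrial genome itself had 0 counts in every library.

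Genes of mitochondrial biogenesis and dynamics had a median of 0.00436 over 32, and mitochondrial ribosomal proteins -0.00676 over 24. The biogenesis and dynamics genes ran from -0.39 to 0.64. Of them 2 were higher and 0 lower at an unadjusted p under 0.05, beside 5.11% and 6.41% of all genes. Ppargc1b had a log2 fold change of 0.50 with overlap (edgeR adjusted p = 0.424). Ppargc1a, the coactivator that drives mitochondrial biogenesis, had 182, 129 and 177 CPM in knockout IRI against 110, 163 and 68.8 CPM in wild-type IRI. The groups overlapped at wild-type IRI replicate 2, with a log2 fold change of 0.52 with an SE of 0.28, at an edgeR adjusted p of 0.457. Sirt3, a mitochondrial deacetylase, had 70.9, 49.9 and 56.4 CPM in knockout IRI against 41.4, 49.5 and 24.8 CPM in wild-type IRI, just without overlap (log2 fold change 0.61, SE 0.23, edgeR adjusted p = 0.422). Fatty acid oxidation had a median of 0.0102 over 31 genes, of which 3 were lower at an unadjusted p under 0.05, beside 6.41% of all genes. The farthest was Pdk4, a kinase that blocks pyruvate entry, at 34.4, 59.5 and 82.1 CPM in knockout IRI against 153, 58.8 and 2321 CPM in wild-type IRI. Glycolysis had a median of 0.0541 over 22 genes.

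Cytosolic ribosomal protein genes had small negative log2 fold changes in all 24 tested, from -0.33 to -0.0716, with a median of -0.18. In 15 of the 24 the groups did not overlap, beside 5.95% of all genes. At an unadjusted p under 0.05 only 3 were lower, beside 6.41% of all genes, and none was called. Rplp0, a protein of the ribosomal stalk, had 262, 293 and 287 CPM in knockout IRI, against 349, 330 and 372 CPM in wild-type IRI (log2 fold change -0.32, SE 0.11, edgeR adjusted p = 0.422). The list median was similar in uninjured kidneys, at -0.16, and it was -0.0992 with knockout IRI replicate 3 as the only knockout IRI library. Several of these genes have pseudogene copies that could share reads.

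Proliferation genes had 21 negative of 23 log2 fold changes and a median of -0.30, beside 0.30 in uninjured kidneys. Pcna, the sliding clamp of DNA replication, had 21.3, 22.7 and 21.1 CPM in knockout IRI against 26.3, 25.8 and 27.9 CPM in wild-type IRI. Its groups did not overlap (log2 fold change -0.30, SE 0.11, edgeR adjusted p = 0.422), and Mcm6, a replication helicase, had -0.57 with overlap (edgeR adjusted p = 0.422). Tight junction genes had a median of -0.0591 over 17, which turned positive with library sizes alone as scaling and with limma-voom (0.00119). Cldn4, a claudin, had 19.0, 36.9 and 32.3 CPM in knockout IRI against 49.5, 25.7 and 160 CPM in wild-type IRI. Wild-type IRI replicate 3 was the highest library and the groups overlapped, with -1.42 (edgeR adjusted p = 0.422). Amino acid transport genes had a median of 0.13 over 18. Slc3a2, the heavy chain of several amino acid transporters, had a log2 fold change of -0.40 at an edgeR adjusted p of 0.444, and its partner Slc7a5 had 0 counts in every library and was not tested. Whether the absence of Slc7a5 counts comes from the kidneys or from how reads were counted was not tested. Sterol and lipid synthesis genes had a median of 0.049 over 16, and Dhcr7, an enzyme late in cholesterol synthesis, had 0.88 without overlap (edgeR adjusted p = 0.422).

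Genes of other tissues followed single libraries. The steroid synthesis genes Hsd3b1, Star, Cyp21a1, Cyp11a1 and Cyp11b1 together reached 272, 1397 and 6.06 CPM in knockout IRI replicates 1 to 3, against 5.22, 5.15 and 7.49 CPM in wild-type IRI replicates 1 to 3. That of Th, Dbh, Chga and Chgb of the adrenal medulla was 32.1, 156 and 0.271 CPM in knockout IRI, against 0.183, 0.168 and 0.383 CPM in wild-type IRI. In controls this medulla sum was 4.28 CPM in knockout control replicate 1 and 0.0921 to 0.203 CPM in the other libraries. Knockout IRI replicates 1 and 2 were high and replicate 3 lay in the range of the wild-type libraries. Between replicates 2 and 1 the ratio was 3.04 to 5.36 over 9 adrenal cortex genes and 3.70 to 6.07 over 6 adrenal medulla genes. Only list genes with at least 1 CPM in knockout IRI replicate 1 and a log2 fold change above 2 were used. The range therefore describes genes chosen for being high in these libraries and not the whole lists. The whole adrenal cortex list, 15 genes tested, had a median log2 fold change of 2.33, and the 10 medulla genes had 5.00. At an unadjusted p under 0.05, 12 cortex genes were higher and 2 lower, beside 5.11% and 6.41% of all genes. With knockout IRI replicate 3 as the only knockout IRI library the medians were 0.0955 and 0.0708. Cyp11b1, which makes corticosterone, had 46.7, 250 and 0.173 CPM in knockout IRI against 0, 0.0186 and 0.0851 CPM in wild-type IRI (log2 fold change 11.4, SE 2.27, edgeR adjusted p = 0.422). The lists of injury, neutrophil and early genes had medians of -0.58, -1.50 and -0.91 in that same fit without the adrenal libraries.

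**Figure D3:**
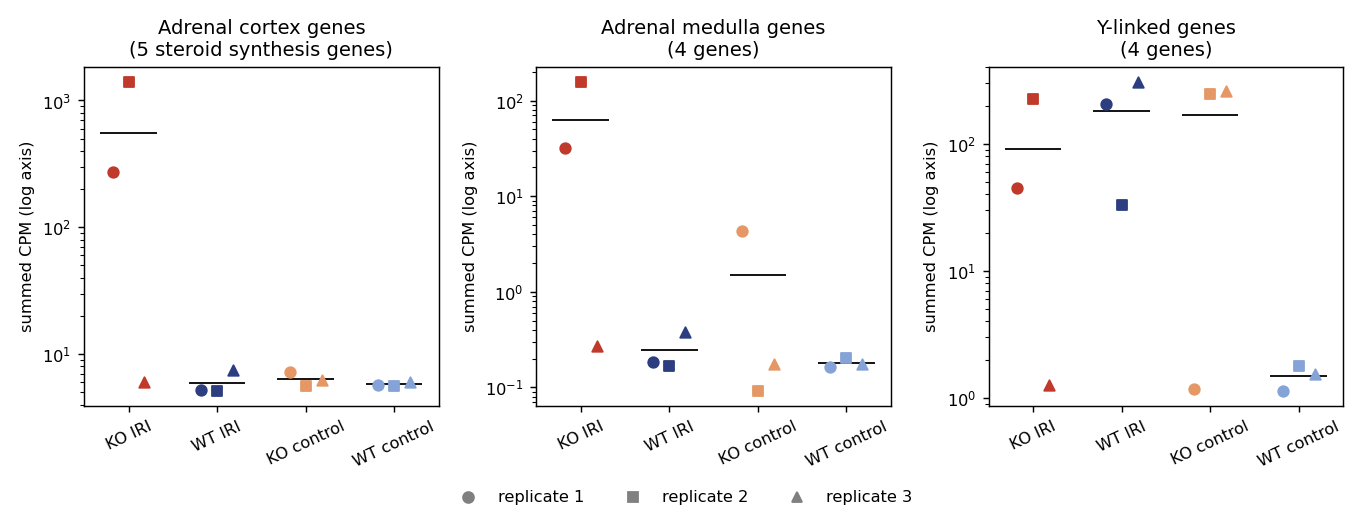
Summed CPM (log axis) per library of 5 adrenal cortex genes, 4 adrenal medulla genes and 4 Y-linked genes in KO IRI, WT IRI, KO control and WT control, with bars for group means (n = 3). The adrenal genes are high in KO IRI replicates 1 and 2 (272 and 1397 CPM for the cortex genes), and Y-linked sums in injured libraries run from 1.26 to 307 CPM. Among controls the medulla sum is highest in KO control replicate 1, at 4.28 CPM.

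Y-linked and sex-biased genes also moved between libraries of 1 group. No Xist counts were found in any library, those with low Y-linked sums included, so Xist does not tell the sex of the mice. Uty, Ddx3y, Eif2s3y and Kdm5d together reached 45.2, 227 and 1.26 CPM in knockout IRI replicates 1 to 3, against 207, 33.2 and 307 CPM in wild-type IRI replicates 1 to 3. The steroid synthesis sums of knockout IRI replicates 1 to 3, at 272, 1397 and 6.06 CPM, had the same order. Why the order is shared, and whether replicates 1 and 2 are independent samples, was not tested. Male-biased kidney genes had negative log2 fold changes in all 13 tested, with a median of -0.96, and -0.0135 with the summed Y-linked level as a covariate. Kap, an androgen-responsive protein of the proximal tubule, had 486, 1368 and 543 CPM in knockout IRI against 2188, 1080 and 3344 CPM in wild-type IRI. Its gene also lies on chromosome 6 within 20 Mb of Ybx3. In the same fit with the covariate, the medians were -0.58 for tubular injury, -0.82 for immediate early, -0.22 for antioxidant and -1.31 for neutrophil genes, and 0.30 and 0.21 for the thick ascending limb and collecting duct. Libraries of like Y-linked level were also set against each other. Knockout IRI replicate 1 minus wild-type IRI replicate 2 gave medians of -0.42 for tubular injury, -0.27 for immediate early, -0.14 for antioxidant and -0.0914 for neutrophil genes, and 0.14 for the thick ascending limb and -0.00122 for the collecting duct. Knockout IRI replicate 2 minus the mean of wild-type IRI replicates 1 and 3 gave -0.49, -0.77, -0.33 and -0.98 for the same injury, early, antioxidant and neutrophil lists, and 0.42 and 0.41 for the thick ascending limb and collecting duct. Other transcripts annotated to the Y chromosome did not follow this sum: Gm47283, chosen after its values were seen, had 135, 163 and 524 CPM in knockout IRI against 1003, 635 and 729 CPM in wild-type IRI. The part of the Y-linked difference in each of these results was not tested beyond these values.

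Fat markers had a median of 1.09 over 12 genes. In 5 every knockout IRI library was above every wild-type IRI library (6.28% of all genes), and 1 was higher at an unadjusted p under 0.05 (5.11% of all genes). Ucp1, the uncoupling protein of brown fat, had 9.78, 4.40 and 9.08 CPM in knockout IRI against 0.366, 1.02 and 2.17 CPM in wild-type IRI (log2 fold change 2.71, edgeR adjusted p = 0.437), and Plin1, a lipid droplet coat protein, had a log2 fold change of 1.89 at an edgeR adjusted p of 0.433. Red blood cell markers had a median of -2.13 over 4, and -0.23 without wild-type IRI replicate 3. Hbb-bt, a beta globin, had 7.50, 5.60 and 5.84 CPM in knockout IRI against 10.97, 5.82 and 67.5 CPM in wild-type IRI. The part of fat and blood in the other results was not tested.

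In uninjured kidneys the same fit called 2 genes of 19218 (0.0104%). Hist4h4 was higher, at 18.8 ± 1.67 CPM in knockout controls and 7.20 ± 0.959 CPM in wild-type controls (SD, n = 3 each, log2 fold change 1.38, edgeR adjusted p = 0.0035), and the chromosome 6 pseudogene Klrb1-ps1 was lower (log2 fold change -4.79, edgeR adjusted p = 0.0125). Ybx3 had a log2 fold change of -1.66 there (edgeR adjusted p = 0.0784). The median of tubular injury genes was -0.11, of neutrophil genes 0.12 and of male-biased kidney genes 2.86. The 4 Y-linked genes summed to 1.18, 248.5 and 261.2 CPM in knockout control replicates 1 to 3. In wild-type control replicates 1 to 3 the sum was 1.14, 1.79 and 1.54 CPM. The part of this difference in the control and interaction results was not tested, nor was that of the adrenal medulla genes in knockout control replicate 1. Whether the genotype difference itself differed between injured and uninjured kidneys was tested as an interaction: edgeR called 0 genes, with 1350 (7.02%) at an unadjusted p under 0.05, limma-voom called 0 and DESeq2 called 32. Neither Havcr1 nor Lcn2 was called in it, and Ybx3 had an unadjusted interaction p of 0.0592 with edgeR over the 12 libraries.

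**Figure D4:**
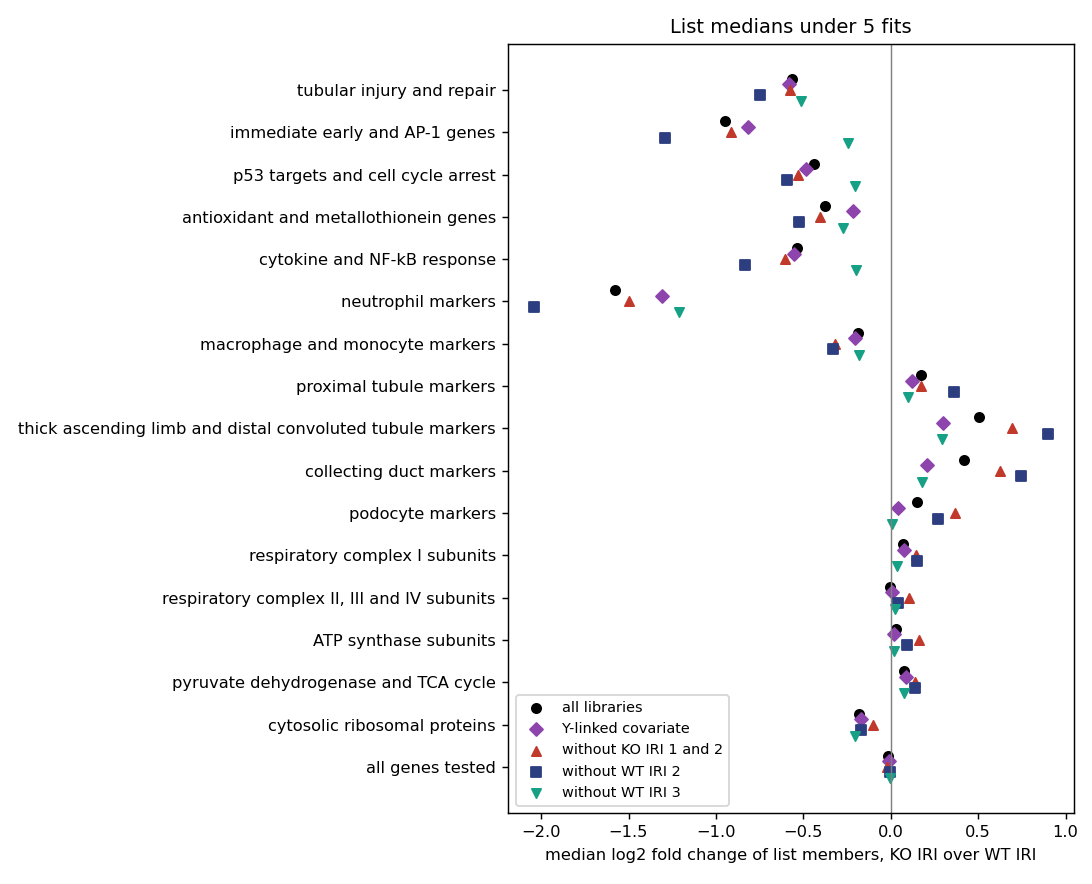
Median log2 fold change (KO IRI over WT IRI) of each gene list under 5 fits: all libraries, with a Y-linked covariate, without KO IRI replicates 1 and 2, without WT IRI replicate 2 and without WT IRI replicate 3. Injury, early, p53, antioxidant, cytokine and neutrophil lists stay below 0 and distal nephron lists above 0 in all 5, while the medians of the 4 mitochondrial lists lie between -0.00299 and 0.16.

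The number of genes called depended on 1 wild-type library. Without wild-type IRI replicate 2, edgeR called 876 of 19764 genes (4.43%), 440 higher and 436 lower, against 2 with all libraries. Without knockout IRI replicate 3 it called 51 (0.258%), 47 of them higher, with 9 adrenal cortex and 4 adrenal medulla genes among them. Without any 1 of the other libraries it called at most 2. Without wild-type IRI replicate 2 the wild-type group consists of replicates 1 and 3, the 2 injured libraries farthest from the controls along principal component 1, and both of high Y-linked level. Of the genes DESeq2 called on all libraries, 63 were among these 876.

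Wild-type IRI replicate 2, left out in that fit, had the lowest wild-type IRI median for injury, early, p53, antioxidant, cytokine and neutrophil genes. It had the highest for proximal tubule, thick ascending limb and collecting duct genes. Leaving it out therefore widens the difference in these same lists, and the calls that follow are not separate support for it. In that fit 13 of 29 tubular injury genes were lower, beside 2.21% of all genes. Havcr1 had a log2 fold change of -1.31 at an edgeR adjusted p of 0.0486, Lcn2 of -1.99 (edgeR adjusted p = 0.0397) and the fibrinogen chain gene Fgb of -2.28 (edgeR adjusted p = 0.0406). Also lower were 8 of 12 neutrophil genes, 8 of 22 antioxidant genes, 4 of 20 immediate early genes, 4 of 17 p53 genes and 3 of 26 cytokine genes. Hmox1, which degrades heme, had a log2 fold change of -1.99 and Retnlg of -3.07 (edgeR adjusted p = 0.0425 and 0.0136). Higher were 3 of 31 proximal tubule, 2 of 18 thick ascending limb and distal tubule, and 2 of 16 collecting duct genes, beside 2.23% of all genes. Slc12a1, the sodium, potassium and chloride cotransporter that loops of Henle use to reabsorb salt, stood at a log2 fold change of 1.70 at an edgeR adjusted p of 0.0397. With all libraries none of the genes named in these sentences was called by edgeR. DESeq2 on all libraries called lower 4 of 29 injury genes (Sox9, Sprr2f, S100a11 and Clu) and 3 of 11 neutrophil genes (Il1r2, Retnlg and S100a9). Also lower were 1 of 21 macrophage genes (Cd14) and 1 of 31 fatty acid oxidation genes, beside 0.161% of all genes with DESeq2. DESeq2 also called 8 of 15 adrenal cortex genes higher and 1 lower, and 3 of 10 adrenal medulla genes higher, beside 0.447% of all genes higher. The 86 higher calls therefore include genes that are high in knockout IRI replicates 1 and 2.

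**Figure D5:**
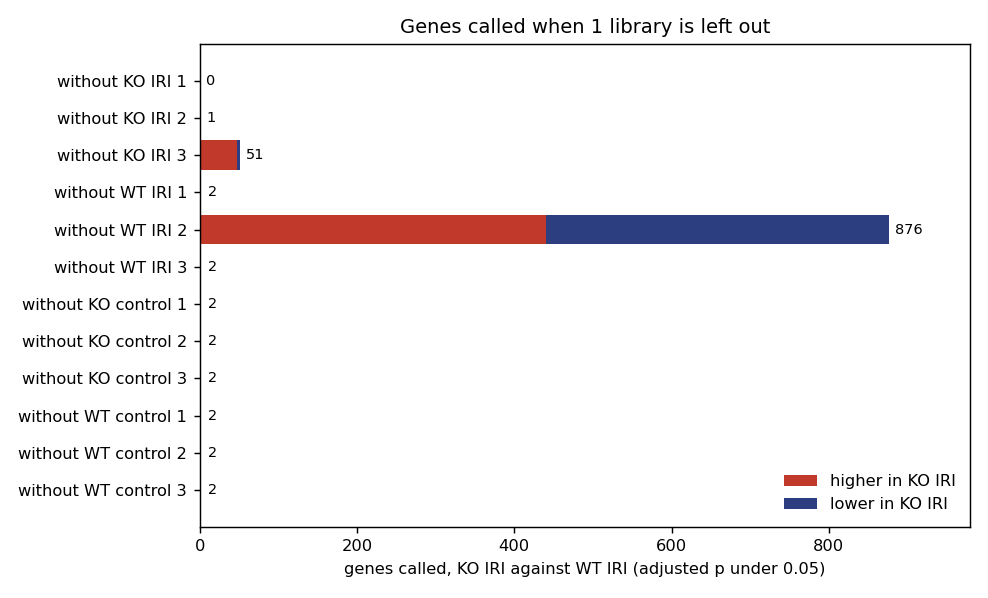
Genes called in KO IRI against WT IRI (edgeR adjusted p under 0.05) when each library is left out, with the higher ones in red and the lower ones in blue. Without WT IRI replicate 2 there are 876, without KO IRI replicate 3 there are 51, and otherwise 0 to 2.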

How the data were processed

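The authors deposited raw counts of reads per Ensembl gene for 12 libraries with no normalization. Per the labels' protocols, ribosomal RNA was removed and strand-marking, paired-end libraries were sequenced. Per the submitters' processing notes, STAR and mm10 were used; not given in the sources used here were the counting tool and its use of strand. Column names were matched to sample titles. Of 42748 genes, 42462 were found in GENCODE M21 and 19218 were kept by filterByExpr (minimum count 10, minimum total 15). TMM scaling gave factors of 0.9002 to 1.06. Every library entered 1 quasi-likelihood fit (edgeR 4.0.16, R 4.3.3) with a coefficient per group, two-sided, Benjamini-Hochberg adjusted. Each SE given is the absolute log2 fold change divided by the square root of that test's F statistic, and was not estimated separately. DESeq2 1.42.0 and limma 3.58.1 (voom) were alternatives. The procedure was tested on simulated data in which genes varied separately. The simulation held no adrenal, Y-linked or injury differences between libraries of a group, so it cannot tell how the procedure handles these. No 2 libraries of a group were copies. Members, gene lists and tests were chosen with earlier results of these data known. Named genes were 11 set genes, the called genes and, per list, the 2 members with the smallest p; other named genes were chosen after their values were seen. A few genes under this rule are left out here. The 44 lists held 833 entries, 768 tested; lists are described by counts and medians, with no test.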

Additional observations from a re-analysis of the deposited data

How the results depend on the processing

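After injury 2 genes were called with edgeR, and also with RLE scaling, library sizes alone, no filter, a filter of 1 CPM in 3 libraries, limma-voom and without adrenal and Y-linked genes. The count was 117 with DESeq2, 4 with the Y-linked covariate, 0 without the adrenal libraries, 0 with only the 2 groups compared, and 1 without the intermediate Y-linked libraries (chosen after seeing the data). Leaving out 1 library gave 0 to 876. In controls, 2 genes were called, 72 with DESeq2, 5 with only the 2 groups compared, 1 with the 1 CPM filter and 1 without the adrenal libraries, and 0 to 129 when 1 library was left out, the highest without knockout control replicate 1. The interaction had 0, 32 with DESeq2, and 0 to 25 when 1 library was left out, the highest also without knockout control replicate 1. The causes were not tested. Without the adrenal libraries the knockout IRI group is 1 library, assumed to vary like the other groups. With only the 2 groups compared, the edgeR adjusted p was 0.711 for Ybx3 and 0.544 for Hist4h4, and without the intermediate libraries that of Hist4h4 was 0.085. No called gene changed direction in any of these settings. Of the 44 list medians, 25 kept their sign in every setting and 19 changed it in at least 1, among them proximal tubule, endothelium, hypoxia, tight junction, fatty acid oxidation, glycolysis, matrix and mitochondrial lists other than complex I.

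Groups share replicate numbers 1 to 3. With these as a replicate block, 0 genes were called after injury, against 2 without it, and the edgeR adjusted p of Ybx3 and of Hist4h4 was 0.0568. The control count stayed at 2 and the interaction at 0. The deviations of same-numbered injured libraries correlated at -0.265, -0.512 and -0.0874, and no sample correlated best with its own number. Differences within groups, such as adrenal and Y-linked levels, also enter these correlations. They therefore cannot tell whether the numbers stand for anything shared.

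Depth was 39074224 to 64372902 counts per injured library, so low genes such as Retnlg rest on few reads. P-values cover the spread between these libraries only.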
